A study of Mus musculus with 12 samples.

Results

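The RAB GTPases are a family of small membrane-bound switches, and their genes were followed here through the 4 stages of a mouse embryonic stem cell culture guided to a cardiac fate. A member is a gene whose platform symbol is Rab followed by a number and at most 1 letter, which 59 of 18193 named genes met, and each is represented by its probe set (the short oligonucleotides that read 1 transcript) with the highest mean over the arrays of the log2 value used below. On the linear scale another probe set was brighter for Rab30 and Rab7b. All 4 stages came from CGR8 embryonic stem cells grown without feeders, sampled as ES-LIF(+) with leukemia inhibitory factor (LIF), as ES-LIF(-) after 48 h of LIF withdrawal, as cardiopoietic cells (CP) and as cardiomyocytes (CM). Both CP and CM descended from cells given a mixture of BMP, TGFβ, IL-13, IL3, IGF1, VEGF, EGF, FGF and IL6, followed for CP by 5 days of 3% serum and TNFα at 30 ng/ml, and for CM by 9 days of 20% serum. Total RNA of each stage was read on 3 Affymetrix Mouse 430 2.0 arrays, described by the study as independent samplings. The study also describes purifying the derived cells on Percoll gradients, at lower densities for CP than for CM. CP and CM thus differed from ES-LIF(+) in LIF, cocktail, serum and time at once, CP also in TNFα, and these cannot be told apart. Purification was a further difference where the RNA came from purified cells. All stages thus rest on 1 cell line, for which no genetic change is given.

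RAB proteins cycle between a GTP-bound form, which recruits effectors to a membrane, and a GDP-bound form, which is drawn off the membrane by GDP dissociation inhibitors. Exchange factors (GEFs) switch them on, GTPase-activating proteins (GAPs) switch them off, and geranylgeranyl lipids added by a dedicated transferase anchor them. Each RAB marks its own compartments, from the endoplasmic reticulum (ER) and Golgi through early and recycling endosomes to lysosomes and secretory vesicles, and in muscle cells they are known for the trafficking of glucose transporters, receptors and ion channels.

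The promoters of Rab20, Rab12, Rab33b and Rab32 are shown because these genes rose in both CP and CM under each of the 3 array scalings described below. They are the 250 bases before the annotated start in RefSeq (GRCm38.p6), written 5′ to 3′ on the strand of the gene, with the E-box CACGTG in capitals, and likewise the GC box, which is GGGCGG or, when read from the opposite strand, CCGCCC. Rab20 was taken from chr8:11478641-11478890 (minus strand), Rab12 from chr17:66519671-66519920 (minus), Rab33b from chr3:51483716-51483965 (plus) and Rab32 from chr10:10558208-10558457 (minus).
Rab20: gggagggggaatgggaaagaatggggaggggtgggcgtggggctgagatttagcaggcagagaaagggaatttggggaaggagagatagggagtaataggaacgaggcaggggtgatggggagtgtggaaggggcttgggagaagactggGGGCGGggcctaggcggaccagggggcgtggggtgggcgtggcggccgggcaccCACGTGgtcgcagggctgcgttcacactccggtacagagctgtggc
Rab12: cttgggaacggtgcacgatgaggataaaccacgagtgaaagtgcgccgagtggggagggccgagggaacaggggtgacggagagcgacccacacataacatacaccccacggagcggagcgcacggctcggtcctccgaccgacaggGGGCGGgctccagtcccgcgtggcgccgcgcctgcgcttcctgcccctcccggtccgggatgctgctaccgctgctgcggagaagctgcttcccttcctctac
Rab33b: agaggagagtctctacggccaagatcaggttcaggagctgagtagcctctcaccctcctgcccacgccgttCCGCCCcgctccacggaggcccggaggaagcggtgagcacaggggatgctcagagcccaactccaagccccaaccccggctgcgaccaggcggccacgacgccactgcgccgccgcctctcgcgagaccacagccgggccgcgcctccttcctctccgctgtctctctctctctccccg
Rab32: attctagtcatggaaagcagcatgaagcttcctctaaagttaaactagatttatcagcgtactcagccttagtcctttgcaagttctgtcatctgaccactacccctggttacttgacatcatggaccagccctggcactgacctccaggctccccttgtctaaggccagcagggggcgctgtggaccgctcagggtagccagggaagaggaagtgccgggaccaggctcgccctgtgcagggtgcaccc
The Rab20 promoter held a CACGTG that began at base -46 before the start and also a GC box, Rab12 and Rab33b held a GC box, and Rab32 held neither motif. Promoters were listed for 48 of the 59 members, 60 promoters in all, among 32851 promoters of RefSeq genes of every kind. Searched on both strands, GGGCGG occurred in 40 of the 60 member promoters (66.7%, 36 genes) and in 32.7% of all promoters. The E-box CACGTG occurred in 5 of 60 (8.33%), those of Rab20, Rab21, Rab23, Rab27a and Rab5a, and in 6.02% of all promoters. Its longer form TCACGTGA, which contains it, occurred in 2 of the 60 (Rab21 and Rab5a, 3.33%) and in 0.785% of all. The TATA motif TATAAA was found in 6.67% of member promoters and 12.4% of all, and AGATAA, the core read by GATA factors, in 3.33% and 9.99%. Member promoters had a median of 15 CG dinucleotides and a GC content of 60.2%, compared with 6 and 52.4% over all promoters. These are matches of letters in the given windows and no binding was measured.

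Signals are Affymetrix intensities on a linear scale, each array scaled to a trimmed mean of 500, and every fold change below is a difference of means of log2(signal + 16). A probe set was tested when it exceeded the median signal of its array on at least 3 of the 12 arrays, which 52 members did. Of these, 39 exceeded it on all 12 arrays and 13 on 3 to 11 arrays. Rab26, Rab30, Rab39, Rab3c, Rab42, Rab44 and Rab9b did not pass and have no test. A call needs an adjusted p under 0.05 in limma (Benjamini-Hochberg over 26083 probe sets) and a fold above 1.5, and all adjusted p-values below are of this kind. Array medians ranged from 101 to 110.9 for ES-LIF(+), 104.3 to 110.2 for ES-LIF(-), 128.9 to 136.3 for CP and 127.7 to 144.1 for CM, and signals near these medians lie close to background. The 6 cardiomyocyte markers summed to 501.4 to 648.2 on the ES-LIF(+) arrays, 1346.2 to 1569.3 in CP and 95274.5 to 108786 in CM, where all 6 exceeded the median. In CP, 2 of the 6 exceeded the median on all arrays. Tnnt2 read 413.6 to 602.4 there and 7.5 to 11.3 in ES-LIF(+), and Myl7 371.9 to 523.9 and 80.8 to 160.9. Myh6, Myl2 and Actn2 lay on both sides of the median in CP, and Nkx2-5, the cardiac homeobox gene, below it on all arrays. The 5 fibroblast markers summed to 88425 to 95110.3 in CP, compared with 763.2 to 1145.1 in ES-LIF(+) and 47095.5 to 47386.1 in CM. The 5 undifferentiated stem cell markers summed to 46325.9 to 48073.5 in ES-LIF(+) and 23234.2 to 27946.3 in ES-LIF(-). In CP they still summed to 28768.5 to 29630, and in CM to 6252.7 to 8316.9. Erythroid globins summed to 559.1 to 17502.5 over the CM arrays. The part of these marked cell types in the RAB results was not tested. In these bulk samples fewer cells of a type and less RNA per cell cannot be told apart.

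With the deposited scaling more members rose than fell in CP and CM, and median centring of the arrays, described below, left 6 rising and 6 falling in CM. Between CM and ES-LIF(+), 22 of the 52 tested members rose and Rab39b fell, against 25.7% of all tested genes that rose and 23.9% that fell. Between CP and ES-LIF(+), 14 rose and Rab3b fell, against 18.7% and 13.3% of all genes. LIF withdrawal alone changed 3 members by limma, all of them upward, where 7.68% of all genes were called in either direction and 3.68% fell. CM compared with CP had 4 members higher and 2 lower, beside 9.04% and 10.4% of all genes. Over the 4 stages 39 of the 52 members passed the F test, and 73.1% of all genes did, a share near that of the family. With no fold threshold, 34 members were higher and 4 lower in CM (32.8% and 32.5% of all genes), 25 and 2 in CP (26.1% and 25.9%), 7 and 1 in ES-LIF(-) (7.95% and 6.34%), and 10 and 4 between CM and CP (14.8% and 21.9%). The 3 comparisons with ES-LIF(+) share the same 3 control arrays. Rab20 and Rab40b passed the filter only through CP and CM arrays, and Rab3b only through ES-LIF(+) and ES-LIF(-) arrays, so they had to differ. Among the 39 members above the median on all 12 arrays, 9 rose and 0 fell in CP by limma, beside 15.5% and 15.2% of the genes that met the same condition. In CM 16 rose and 0 fell by limma, beside 21.9% and 27.5%.

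The median member was 0.49 higher on the log2 scale in CM than in ES-LIF(+), and the median over all tested genes 0.06. In CP these medians were 0.38 and 0.04, and in ES-LIF(-) 0.10 and 0.03. All CM arrays lay above all ES-LIF(+) arrays for 33 members and below them for 4, and this separation was met by 35.3% and 33.9% of all genes. In CP the counts were 27 and 2, beside 30.8% and 29.8%, in ES-LIF(-) 12 and 5, beside 17.6% and 13.7%, and between CM and CP 14 and 6, beside 21.9% and 28.1%. The highest stage mean fell in CM for 29 members, in CP for 11, in ES-LIF(-) for 11 and in ES-LIF(+) for 1, compared with 34.7%, 18.0%, 25.8% and 21.5% of all genes.

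**Figure D1:**
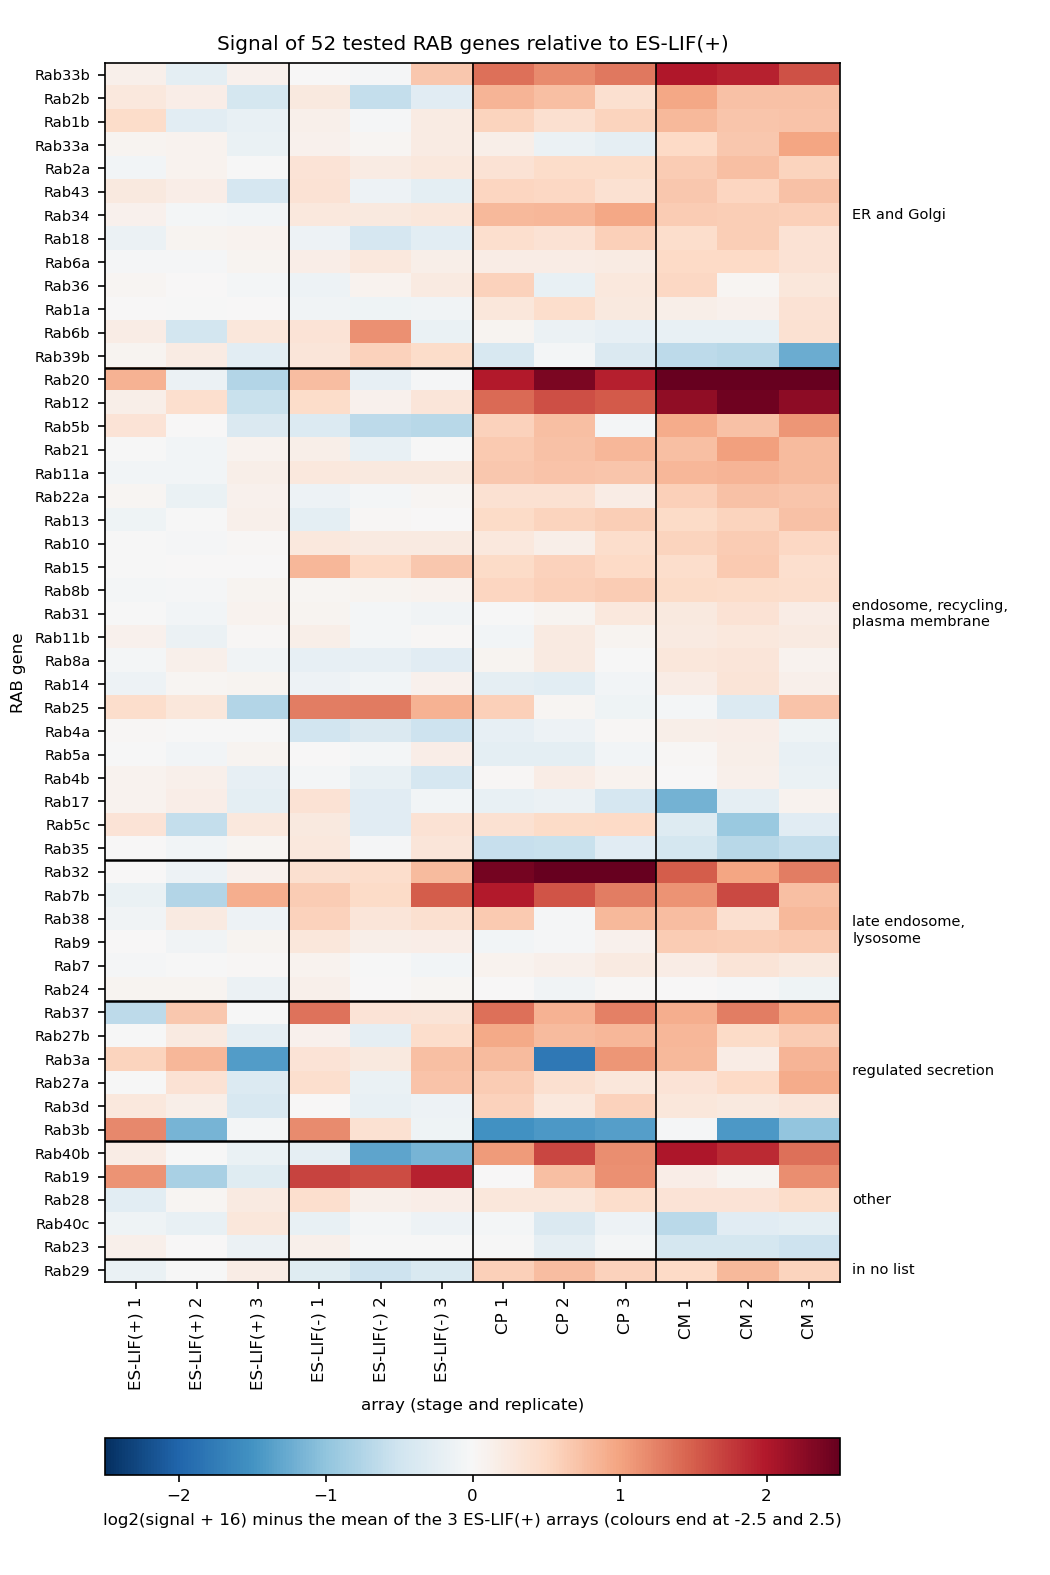
Signal of the 52 tested RAB genes (rows, grouped by compartment) on the 12 arrays (columns), as log2(signal + 16) minus the mean of the 3 ES-LIF(+) arrays. Red marks higher and blue lower values, with red dominating in the CP and CM columns, where 14 and 22 members rose.

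How many members rose depended on the scaling of the arrays, since array medians were higher in CP and CM. Centring each array on its median moved the median of all genes by -0.28 in CP and -0.32 in CM. After centring, 5 members rose and 2 fell in CP (9.62% and 3.85%), where 12.1% of all genes rose and 27.4% fell, and 6 rose and 6 fell in CM (11.5% each), where 17.4% of all genes rose and 35.1% fell. Quantile normalization gave 10 higher and 1 lower in CP (19.2% and 1.92%), beside 14.5% and 16.5% of all genes, and 16 higher and 2 lower in CM (30.8% and 3.85%), beside 21.2% and 27.5%. The median member lay 0.43 above the median gene in CM and 0.34 in CP, a distance that centring cannot change because it moves every gene alike. After quantile normalization it was 0.47 and 0.33. Rab12, Rab20, Rab32 and Rab33b rose in both CP and CM under the 3 scalings. Rab40b and Rab5b also rose in CM under all 3. In CM, centring turned 5 members into calls of a fall, Rab17, Rab23, Rab35, Rab40c and Rab5c.

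**Figure D2:**
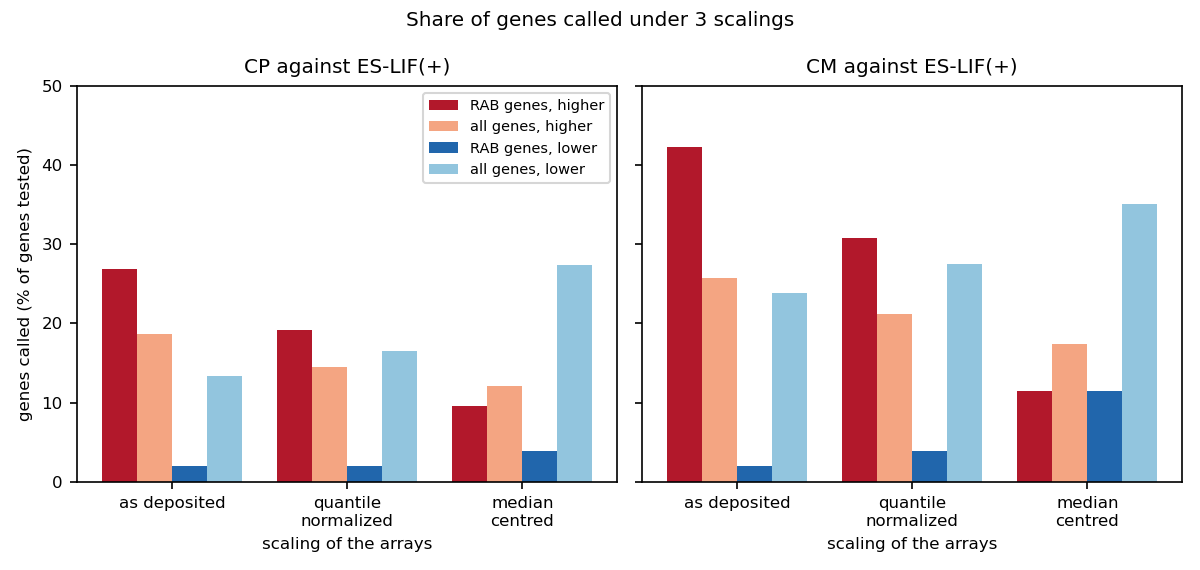
Share of RAB genes (dark bars) and of all tested genes (light bars) called higher (red) or lower (blue) in CP and in CM against ES-LIF(+), in percent of genes tested, under 3 scalings of the arrays. In CM the share of RAB genes called higher was 42.3% as deposited, 30.8% after quantile normalization and 11.5% after median centring, while the share called lower stayed below that of all genes in each.

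Of the 21 tested members of early and recycling endosomes and the plasma membrane, 5 rose in CP (23.8%) and 7 in CM (33.3%), and none fell by limma. The shares of all genes that rose, 18.7% in CP and 25.7% in CM, and that fell, 13.3% and 23.9%, are the background for each group of genes that follows, and no group was tested against it. Rab20, which acts on endosomes and phagosomes, had signals of 38.7, 11.2 and 2 on the ES-LIF(+) arrays, 34.9, 9.8 and 13.5 on ES-LIF(-), 102.5, 136.7 and 98.9 on CP, and 302.5, 341.1 and 361.5 on CM. Every stem cell array lay below the array medians, CP lay near them and CM well above, without overlap between these. Rab20 was 2.09 ± 0.42 (SE, n = 3 per stage) higher in CP and 3.55 ± 0.42 higher in CM. It passed the filter only through CP and CM arrays, so it had to be higher there. No p-value is therefore given for these rises. These folds start from signals below the array medians and depend on the constant added. With a constant of 1 the values in CP and CM became 3.31 and 4.89, and a constant of 64 gave 1.14 and 2.32. The step from CP to CM was 1.46 (adjusted p = 0.0148), and it lost its call without CM replicate 3, when adjusted p was 0.0508, and with a constant of 1 (0.15 by limma).

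Rab12, which directs receptors from recycling endosomes to lysosomes, read 243, 297.7 and 144.8 on the ES-LIF(+) arrays, 306.3, 236.9 and 275.9 on ES-LIF(-), 609.4, 708.1 and 662.5 on CP, and 1075.6, 1248.1 and 1091.7 on CM. Both stem cell stages shared a range, all CP arrays lay above it and all CM arrays above CP. The rise was 1.52 ± 0.20 in CP (adjusted p = 1.54e-05, limma, n = 3) and 2.29 ± 0.20 in CM (8.7e-08), and the further step from CP to CM was 0.77 ± 0.20 (0.00684). Leaving out any array kept all 3 calls.

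Other endosomal members moved less. Rab11a, the recycling endosome RAB, was 0.82 higher in CM and 0.69 in CP, and Rab21, which acts on integrin traffic, 0.86 and 0.74. Rab5b (0.92), Rab22a (0.67) and Rab13 (0.59), a junction-associated member, rose in CM, and Rab8b (0.59) in CP. With median centring, only Rab5b of these 6 kept its call. Rab5a, the main early endosome RAB, was called in neither stage and gave -0.19 in CP. Rab35, a plasma membrane recycling RAB, was 0.58 lower in CM (adjusted p = 0.000274) on non-overlapping arrays, at a fold of 1.49 that missed the threshold.

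Rab5c, the early endosome paralog of Rab5a, had signals of 2200.4, 1138.5 and 2070.8 in ES-LIF(+), 2047.9, 1424.7 and 2231.4 in ES-LIF(-), 2250, 2432.7 and 2460.8 in CP, and 1388.1, 897.7 and 1415.2 in CM. All CM arrays lay below all CP arrays, while replicate 2 was the lowest array of 3 stages and ES-LIF(+) overlapped CM. Rab5c fell by 0.97 ± 0.23 (SE, n = 3, adjusted p = 0.00435 by limma) from CP to CM, and that call held without any array.

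Among 13 tested members of the ER and Golgi, 7 rose and 1 fell in CM (53.8% and 7.69%, beside 25.7% and 23.9% of all genes), and 3 rose in CP (23.1%, beside 18.7%). Rab33b, a Golgi RAB that binds the autophagy protein Atg16l1, read 240.7, 182.8 and 235.2 in ES-LIF(+), 220, 212.9 and 359.6 in ES-LIF(-), 591.7, 516.7 and 565.6 in CP, and 922.8, 868.2 and 691.5 in CM. The 4 stages formed 3 levels, with the stem cells lowest and CM above CP on every array. Rab33b rose by 1.29 ± 0.19 in CP (adjusted p = 5.04e-05, limma, n = 3) and by 1.84 ± 0.19 in CM (6.48e-07), and the 0.55 between CP and CM had a fold of 1.46, under the threshold.

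Its paralog Rab33a, known from vesicle exocytosis in neurons and lymphoid cells, read 166.2, 169 and 137.5 in ES-LIF(+), 169.4, 162.3 and 182.2 in ES-LIF(-), 174.2, 140.4 and 132.7 in CP, and 229, 260.8 and 325.7 in CM. CM stood above all 9 other arrays, which overlapped. Rab33a rose by 0.80 ± 0.20 between CP and CM (adjusted p = 0.00585, limma, n = 3) and by 0.72 between ES-LIF(+) and CM (0.00518), the latter call being lost under both other scalings.

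The ER-to-Golgi members Rab1b (0.74), Rab2a (0.65) and Rab2b (0.81) rose in CM, as did Rab43 (0.64) and Rab34 (0.61), a Golgi and ciliary RAB that was 0.87 higher in CP. Rab1b and Rab2a lay above ES-LIF(+) on every CM array. With median centring, all of these lost their call in CM, and Rab34 also lost its call in CP. Quantile normalization removed the CM calls of Rab2b and Rab43. Rab39b, a neuronal and autophagy-linked RAB, read 201.7, 224.1 and 156.8 in ES-LIF(+), 241.3, 292.9 and 269 in ES-LIF(-), 141.8, 184.5 and 146.2 in CP, and 117.2, 113.2 and 72.6 in CM. It was lowest in CM, below every array of the other stages. Rab39b fell by 0.86 ± 0.22 (SE, n = 3, adjusted p = 0.00383 by limma) in CM against ES-LIF(+), a call that held without any array and under all 3 scalings. Rab29, which is recruited to Golgi and lysosomes and stood in no compartment list, rose by 0.65 in CP and 0.63 in CM. Both calls were lost under either other scaling.

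Of 6 late endosome and lysosome members, 2 rose in CP (33.3%, beside 18.7% of all genes) and 4 in CM (66.7%, beside 25.7%). With median centring, Rab38, Rab7b and Rab9 lost their call in CM against ES-LIF(+), which left Rab32. Quantile normalization removed those of Rab38 and Rab7b. Rab32, which builds lysosome-related organelles and anchors protein kinase A at mitochondria, had signals of 75.6, 67.6 and 81.7 in ES-LIF(+), 103.6, 107.2 and 141.2 in ES-LIF(-), 461.7, 507.4 and 591.1 in CP, and 241.7, 162.7 and 203 in CM. The stages did not overlap, and CP stood highest. Rab32 rose by 2.55 ± 0.21 in CP (adjusted p = 1.6e-07, limma, n = 3) and by 1.25 ± 0.21 in CM (8.89e-05). From CP to CM it fell by 1.30 ± 0.21 (0.000202). All 3 calls held without any array. The ES-LIF(+) signals lay below the array medians, and the rise in CP was 2.77 with a constant of 1 and 2.07 with 64.

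Rab7b, which returns cargo from endosomes to the trans-Golgi network, read 31.2, 15.9 and 83.6 in ES-LIF(+), 66.4, 57.9 and 136.5 in ES-LIF(-), 192.6, 142.4 and 113.3 in CP, and 99.5, 151.6 and 73.2 in CM. CP separated from ES-LIF(+), while CM overlapped it. The rise was 1.61 ± 0.43 in CP (adjusted p = 0.0067, limma, n = 3) and 1.18 ± 0.43 in CM (0.0288), the latter lost without ES-LIF(+) replicate 1 or 2 or CM replicate 1 or 2, with an adjusted p of up to 0.132. Rab9, which recycles mannose 6-phosphate receptors, had signals that rose by 0.63 ± 0.07 from CP to CM (1.22e-05) and by 0.63 from ES-LIF(+) (2.52e-06). Rab7, the general late endosome RAB, gave 0.15 in CP and 0.25 in CM, neither past the fold threshold, and Rab24 gave -0.01 and -0.04.

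Regulated secretion is served by 6 tested members, of which Rab27b and Rab37 rose in both stages (33.3%, beside 18.7% of all genes in CP and 25.7% in CM) and Rab3b fell in CP (16.7%, beside 13.3%). Rab37, found on secretory granules, was 1.17 higher in CP and 1.05 in CM. Rab27b and Rab37 each lost both calls under either other scaling. Rab3b, a vesicle RAB of neurons and endocrine cells, read 241.7, 34.1 and 91.4 in ES-LIF(+), 238.3, 129.2 and 87 in ES-LIF(-), 22.9, 25 and 27.1 in CP, and 92.8, 25 and 40.4 in CM. The CP arrays were the most alike and all far below the array medians, while the ES-LIF(+) arrays spread widely. Rab3b passed the filter only through stem cell arrays, the stages where it is high. Its fall of 1.44 ± 0.55 (adjusted p = 0.0418, limma, n = 3) lost the call without ES-LIF(+) replicate 1 or 3, ES-LIF(-) replicate 2 or any of the 3 CP arrays, with an adjusted p of up to 0.223.

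**Figure D3:**
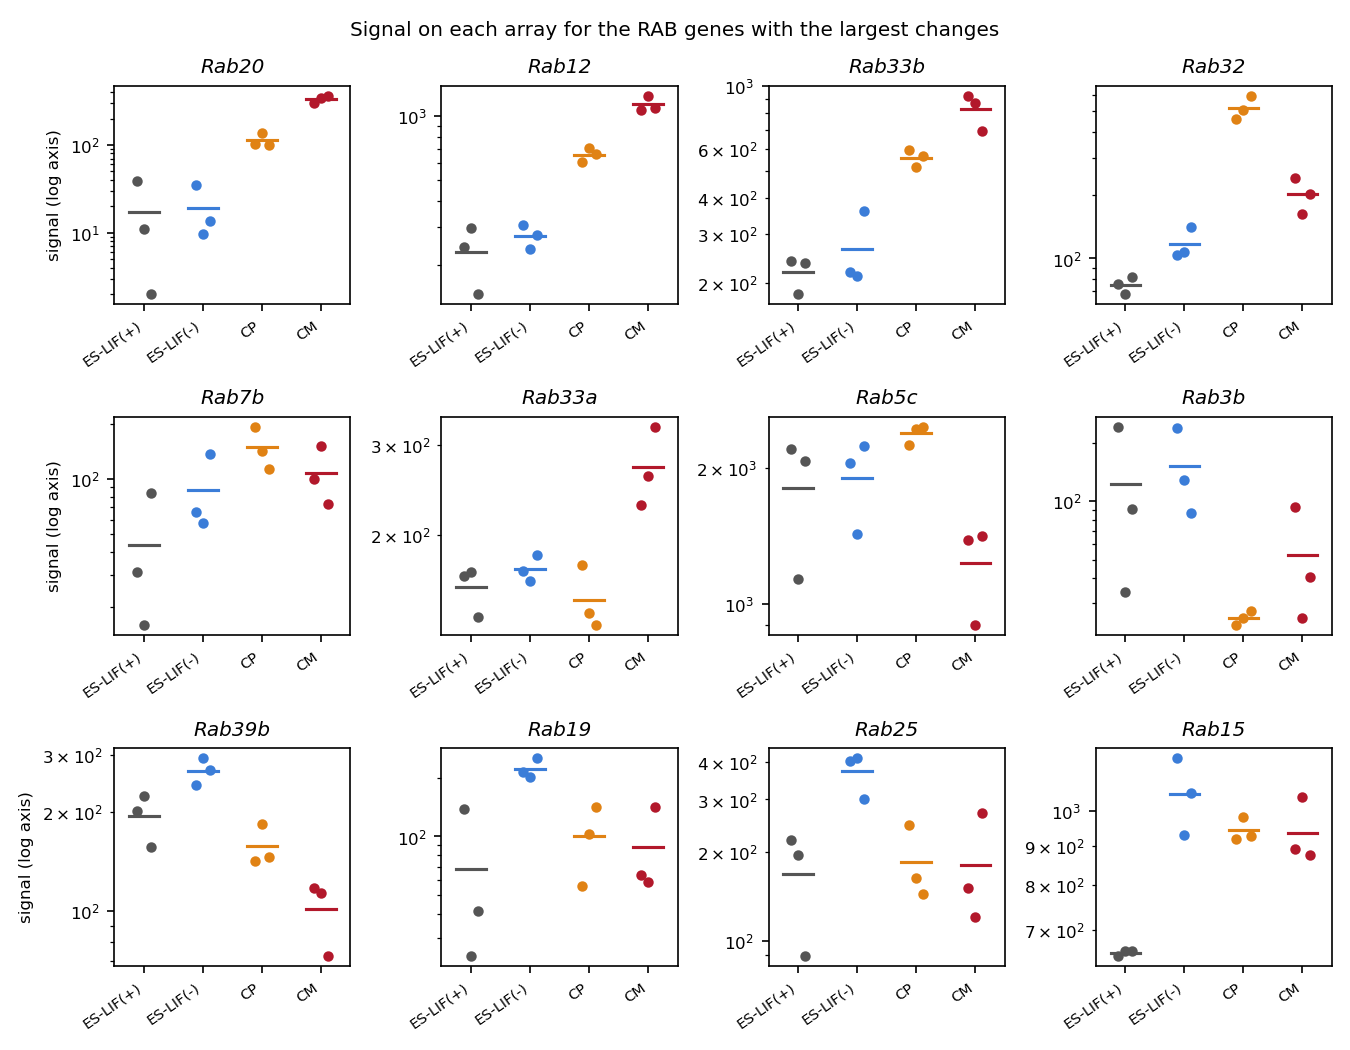
Signal (log axis, a range of its own in each panel) of 12 RAB genes on each of the 12 arrays, with points for arrays and lines for stage means. Rab20, Rab12 and Rab33b rose from CP to CM in their means, Rab32 stood highest in CP with means of 520.1 there and 202.5 in CM, and Rab19, Rab25 and Rab15 were highest after LIF withdrawal.

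The 5 remaining tested members act at cilia or elsewhere. Rab40b, part of a ubiquitin ligase with a SOCS box, was 1.30 higher in CP and 1.75 ± 0.41 (SE, n = 3) higher in CM. Its mean signal was 30.2 in ES-LIF(+), below the array medians, and 141.4 in CM. Rab40b passed the filter only through CP and CM arrays, so it had to be higher there and no p-value is given. Its call in CP was lost under both other scalings and without CP replicate 2. With a constant of 1 the CP difference was 1.66 without a call, and the rise in CM 2.17, while 64 gave 0.78 and 1.11. Rab40c, of the same SOCS box group, was 0.40 lower in CM and not called. Rab23, a negative regulator of Hedgehog signaling, was 0.46 lower in CM (adjusted p = 0.000672) at a fold of 1.38, also not called.

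LIF withdrawal raised Rab19, Rab25 and Rab15. Rab19 read 138.6, 24.3 and 41.3 in ES-LIF(+), 212.9, 202.4 and 252.9 in ES-LIF(-), 55.6, 103.5 and 141 in CP, and 63.7, 58.7 and 141.7 in CM. Rab25, an epithelial relative of Rab11, read 219.4, 195.5 and 89.1 in ES-LIF(+), 403.3, 413.8 and 301.6 in ES-LIF(-), 246.3, 163.4 and 144.2 in CP, and 151.3, 121.2 and 270.4 in CM. In both genes the ES-LIF(-) arrays stood above all 9 others.

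Rab15, which slows traffic through early and recycling endosomes, read 646.6, 656.4 and 657.7 in ES-LIF(+), 1173.5, 932 and 1057.3 in ES-LIF(-), 918.8, 983.4 and 929.2 in CP, and 892.6, 1042.2 and 877.5 in CM. Only the ES-LIF(+) arrays stood apart, below the rest. The rises in ES-LIF(-) were 1.74 ± 0.46 for Rab19 (adjusted p = 0.0221, limma, n = 3), 1.15 ± 0.33 for Rab25 (0.0321) and 0.67 ± 0.10 for Rab15 (0.000575). Rab19 lost its call without ES-LIF(+) replicate 2 or 3 or any ES-LIF(-) array (adjusted p up to 0.0946), and Rab25 without ES-LIF(+) replicate 3 or ES-LIF(-) replicate 1 or 2 (up to 0.118), whereas Rab15 kept it. Beside these, the 4 epithelial markers had summed signals of 18711.9 to 21788.9 with LIF and 26475.3 to 28866.5 without it. The sums were 12051 to 12887.9 in CP and 15528.9 to 17240.1 in CM. Without LIF, Epcam and Cdh1 were higher on all arrays, while Krt8 and Krt18 overlapped. In CM, Epcam and Cdh1 lay below all ES-LIF(+) arrays, and Krt8 and Krt18 above them. The part of these markers was not tested.

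**Figure D4:**
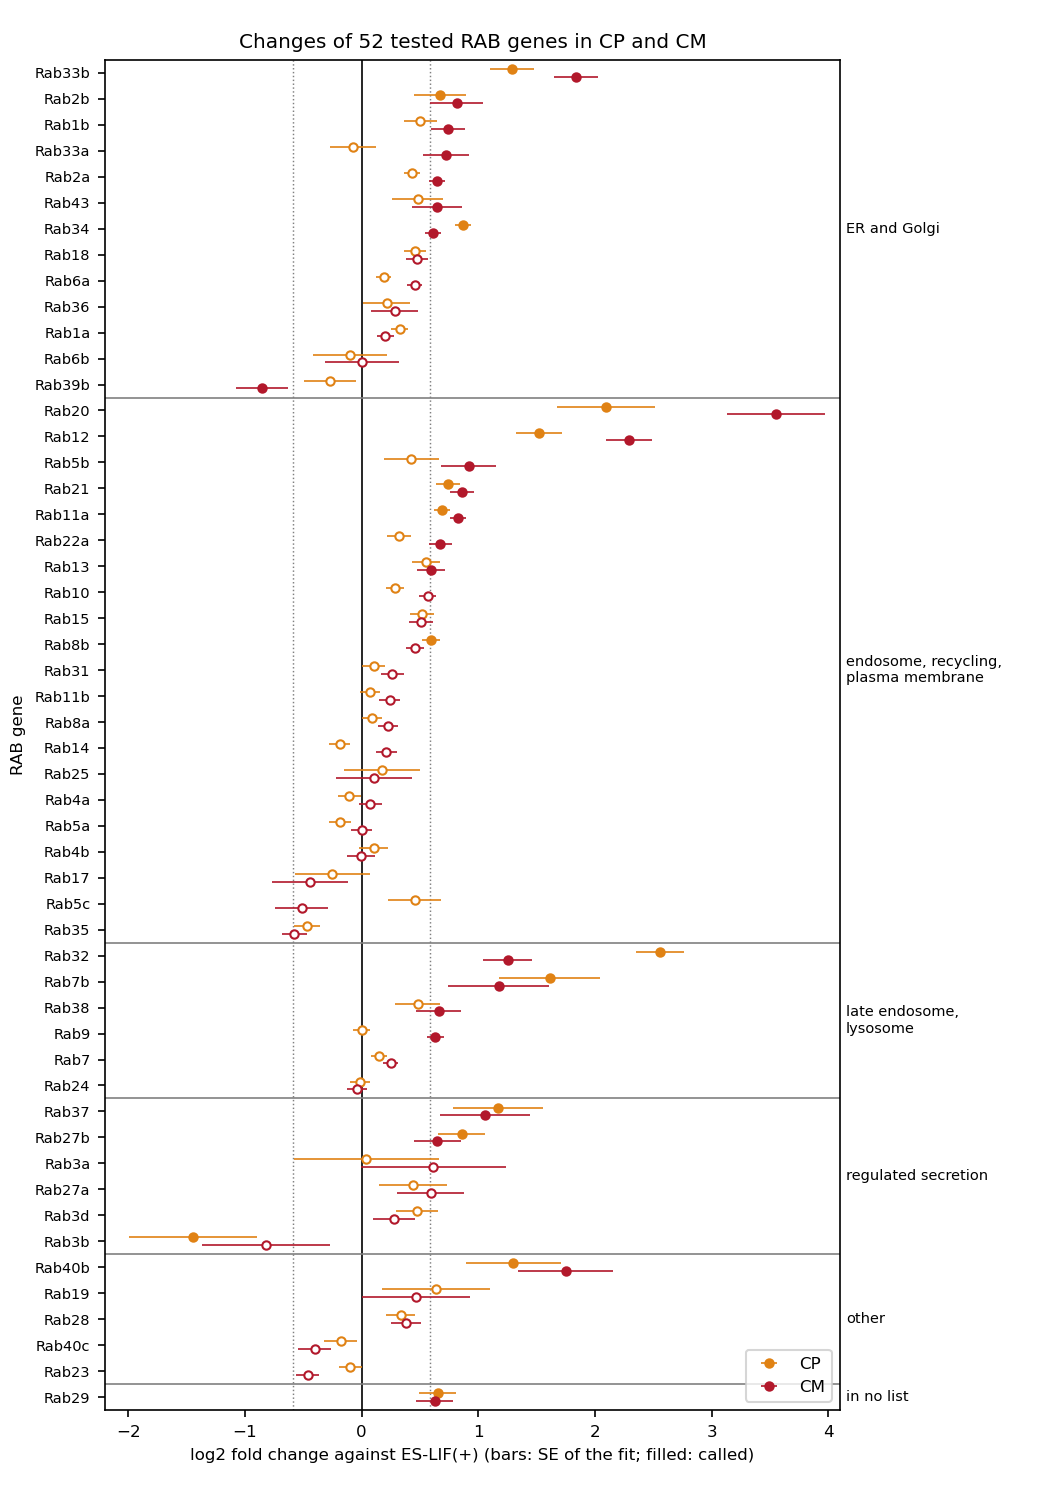
Log2 fold change of each of the 52 tested RAB genes (rows, grouped by compartment) in CP (orange) and CM (red) against ES-LIF(+), with bars for the standard error of the fit, filled points for calls and dotted lines at a fold of 1.5. The points lie mostly right of 0, with Rab20 farthest at 3.55 in CM and Rab32 at 2.55 in CP, and filled points left of 0 are Rab3b in CP and Rab39b in CM.

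Close paralogs were set side by side. For 19 such pairs the difference between the 2 log2 values of each array was compared between stages in 3 comparisons, 57 tests in all, by an exact two-sided permutation test over arrays. Its smallest possible p with 3 arrays against 3 is 0.1, so no pair could pass 0.05. The values that follow are the fold change of 1 gene minus that of the other. Rab32 exceeded Rab38, its partner in lysosome-related organelles, by 2.07 ± 0.31 in CP, and between CM and CP the difference was -1.48 ± 0.26. These rest on the _x_at probe set of Rab38, whose other probe set, 1417700_at, gave 0.78 in CP and -0.58 between CM and CP, nearer to Rab32 in both. Rab11a exceeded Rab11b by 0.58 ± 0.09 in CM. Rab40b exceeded Rab40c by 2.15 ± 0.39 in CM, although another probe set of Rab40c went the opposite way. Rab33b exceeded Rab33a by 1.37 in CP, a stage in which Rab33a gave -0.08. Rab5b exceeded Rab5c by 1.46 ± 0.29 between CM and CP, where Rab5b itself gave 0.49 and was not called. Rab2a and Rab2b differed by 0.17 ± 0.25 in CM on overlapping arrays.

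For 38 members several probe sets were on the array, and the rule's choice mattered for several of them, among them the secretory RABs Rab3a and Rab27b. Rab3a, the synaptic vesicle RAB, was represented by 1459980_x_at, which read 2857.9, 3460.2 and 726 in ES-LIF(+), 3346.2, 552.5 and 4192.9 in CP, and 3393.9, 2213.4 and 3485.8 in CM, and gave 0.61 in CM without a call. The second Rab3a probe set, 1422589_at, read 55.1, 39.8 and 160.3 in ES-LIF(+), 189.5, 96 and 67.8 in ES-LIF(-), 418.6, 312.9 and 371.9 in CP, and 845.3, 771.5 and 771.9 in CM. It rose on non-overlapping arrays by 2.10 ± 0.37 in CP (adjusted p = 0.00026, limma, n = 3), by 3.19 ± 0.37 in CM (2.33e-06) and by 1.09 from CP to CM (0.0343).

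Rab27b, which docks secretory granules and exosome-bearing bodies, gave 0.65 in CM with its chosen probe set 1443764_x_at. Another, 1417214_at, read 37.7, 3.6 and 60.2 in ES-LIF(+), 38.1, 3.2 and 34 in ES-LIF(-), 169.5, 157.8 and 182.1 in CP, and 436.7, 395.4 and 360.7 in CM, a rise of 3.26 ± 0.47 in CM, and 1417215_at gave 3.23 ± 0.57. All 3 pointed upward and differed in size. However, 1417214_at passed the filter only through CP and CM arrays, and 1417215_at only through CM arrays. Both therefore had to point upward, from ES-LIF(+) signals below the array medians, where folds depend on the constant added. The suffix _x_at marks probes that can match other transcripts.

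Rab38 rose in CM only by its _x_at probe set (0.66), while 1417700_at gave 0.20 in CM and rose by 0.78 in CP. The 2 tested probe sets of Rab40c were opposed in CM, at -0.40 and 0.83, the second of which passed as a rise. For Rab6b, a Golgi RAB of neurons, the chosen probe set gave 0.00 and the other -1.17, called lower. Rab23 gave -0.46 with the chosen one and -0.89, called lower, with 1454876_at. For Rab43, 1425333_at rose by 2.30 in CP and 1.69 in CM, where the chosen one gave 0.48 and 0.64. Over the family, 10 of the 23 members called in CM had another tested probe set, and for 9 all of them pointed the same way, the exception being Rab22a, with 1 of its 3 others at -0.22. Another probe set passed for 10 members that were not called in CM. Rab30, a Golgi RAB that was not tested, had another probe set, 1426452_a_at, brighter on the linear scale but with a lower mean log2 value. That set was 1.33 higher in CM than in ES-LIF(+). It passed the filter only through the CM arrays, so CM had to be higher and no p-value is given.

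**Figure D5:**
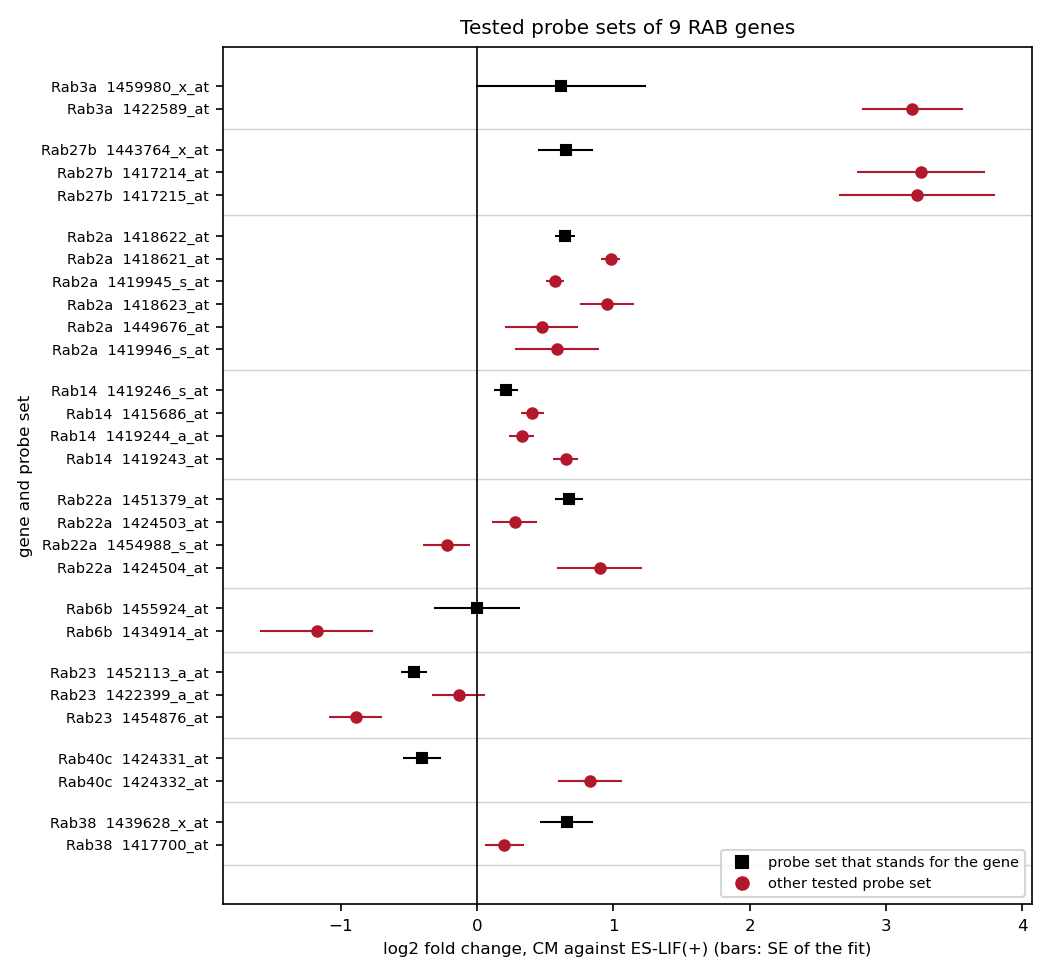
Log2 fold change of each tested probe set of 9 RAB genes, picked after their values were seen, between CM and ES-LIF(+), with bars for the standard error of the fit. Squares mark the probe set that stands for the gene, and circles the others, which lie far to the right for Rab3a (3.19 against 0.61) and Rab27b (3.26 and 3.23 against 0.65) and on the other side of 0 for Rab40c (0.83 against -0.40). The Rab27b circles passed the filter only through CP or CM arrays, so they had to lie right of 0.

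Of the 103 tested genes of the machinery that serves the RABs, 24 rose and 20 fell in CM (23.3% and 19.4%, beside 25.7% and 23.9% of all genes), and 17 rose and 5 fell in CP (16.5% and 4.85%, beside 18.7% and 13.3%). Their difference from the RAB genes was not tested. Calls of these pathway genes use the deposited scaling only and were not recomputed under the other scalings. Median centring moves every gene by -0.28 in CP and -0.32 in CM, so calls near the fold threshold depend on the scaling. Of 7 tested genes for lipid anchoring and membrane extraction, 1 rose and 2 fell in CM (14.3% and 28.6%, beside 25.7% and 23.9% of all genes), with a median of -0.51. Rabac1, a Golgi-resident prenylated RAB acceptor, rose by 0.96 ± 0.11 (adjusted p = 3.37e-06, limma, n = 3), and Rabggta, the alpha subunit of the geranylgeranyl transferase, fell by 0.64 ± 0.10 (4.33e-05), like Rabif, a RAB-binding chaperone (-0.64). None of the 7 was called in CP by limma, where 1 was higher and 2 lower by adjusted p alone.

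Of 28 tested GEFs, 4 rose and 1 fell in CM (14.3% and 3.57%, beside 25.7% and 23.9% of all genes), and 2 rose and 2 fell in CP (7.14% each, beside 18.7% and 13.3%). Rin1, a RAB5 exchange factor, averaged 106.7 with LIF, 397.5 at the CP stage and 430.2 at the CM stage, rises of 1.76 ± 0.21 and 1.86 ± 0.21. Dennd5a rose by 0.62 in CP and 0.94 in CM, and Dennd2c fell, at -0.99 and -1.93. Rab3ip, the RAB8 exchange factor also called Rabin8, fell by 0.61 in CP and rose by 0.60 in CM.

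Of 33 GAPs, 8 rose and 7 fell in CM (24.2% and 21.2%, beside 25.7% and 23.9% of all genes), and 7 rose and 3 fell in CP (21.2% and 9.09%, beside 18.7% and 13.3%). Evi5l (1.73) and Tbc1d9b (1.68) had the largest rises in CM, and Tbc1d9 (-1.47) and Tbc1d15 (-1.13), a RAB7 GAP, the largest falls. In CP the extremes were Tbc1d2 (1.66 ± 0.52) and Evi5l (1.37) above, and Tbc1d9 (-1.09) and Tbc1d14 (-0.63) below. The Tbc1d2 rise started from a mean signal of 55.5 in ES-LIF(+), below the array medians, and is imprecise.

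Of 35 effectors, 11 rose and 10 fell in CM (31.4% and 28.6%, beside 25.7% and 23.9% of all genes), while 8 rose (22.9%, beside 18.7%) and none fell in CP by limma (beside 13.3%), where 5 were lower by adjusted p alone. Rab11fip5, an effector of RAB11 on recycling endosomes, had a mean signal of 231.2 ± 89.2 (SD, n = 3) with LIF, 755.1 ± 39.7 at the CP stage and 1304.6 ± 143.8 at the CM stage, rises of 1.71 and 2.48. Micall1, a scaffold of tubular recycling endosomes, rose by 2.29 ± 0.16 in CM. Rph3a, an effector of RAB3 and RAB27, rose by 1.50 ± 0.48 in CP, from a mean signal of 92 in ES-LIF(+), below the array medians. Plekhm1, an adaptor for RAB7 on lysosomes, and Gcc2, a trans-Golgi golgin, fell by 0.92 each in CM. Over all 103 tested pathway genes the median was 0.12 in CM and 0.03 in CP, compared with 0.06 and 0.04 over all genes.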

How the data were processed

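The authors processed the scanned arrays with MAS5 and deposited linear signal intensities, each array scaled by them to a 2% trimmed mean of 500; no detection flags were used here. Of 45101 probe sets, 64 controls were removed. Genes were named from the platform annotation where a probe set had 1 symbol (34945 probe sets; 932 had several, 9160 none), and all 59 member symbols matched RefSeq. A total of 13145 genes were tested. Log2(signal + 16) of all 12 arrays was fitted in limma 3.58.1 (R 4.3.3) with an intensity trend. The procedure was tested on simulated data. Array number limits precision. Values of every array were given for the called members with the 3 largest rises and falls in each comparison, and in each pathway list the 2 called genes with the largest rise and fall in CP and in CM were named. The members, compartment lists, pathway lists and markers were chosen with earlier results of these data known. The lists held 8, 31, 35 and 46 genes, of which 7, 30, 35 and 41 were found on the array. Alternatives covered scaling, pseudocount, filter, test, variance trend, fold threshold, arrays in the fit, probe set choice, leaving out single arrays and a replicate block. Replicate numbers did not pair the arrays.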

Additional observations from a re-analysis of the deposited data

How the results depend on the processing

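Counts of RAB genes called were recomputed under each alternative, and 3 alternatives (the brightest probe set on the linear scale, the brightest without _x_at and _s_at sets, and centring with the filter on all 12 arrays) were added after seeing the data. Median centring gave 5 higher and 2 lower in CP and 6 higher and 6 lower in CM, and quantile normalization 2 lower in CM. With the filter on all 12 arrays, 39 members were tested, and 9 were higher and 0 lower in CP, 0 lower in CM, 1 higher in ES-LIF(-), and 2 higher and 1 lower between CM and CP. The same filter with centring gave 2 higher and 1 lower, Rab35, in CP and 3 higher and 4 lower in CM. It gave 1 higher in ES-LIF(-), and 2 higher and 1 lower between CM and CP. With no fold threshold 25 were higher and 2 lower in CP, 34 and 4 in CM, 7 and 1 in ES-LIF(-), and 10 and 4 between CM and CP. A fold over 2 left 7 higher in CP, 7 higher and 0 lower in CM, and 1 higher and 1 lower between CM and CP. One-way ANOVA, the methods' test, gave 0 lower in CP, 1 higher and 1 lower in ES-LIF(-) and 1 lower between CM and CP. Rab3b, the only fall in CP, was lost (0 lower) with no filter, with no variance trend and with the 2 stages fitted alone. The brightest probe set on the linear scale gave 1 lower in ES-LIF(-), Rab30, on signals below the array medians in both stages. Leaving out 1 array gave 12 to 14 higher and 0 to 1 lower in CP, 18 to 22 and 1 to 4 in CM, 1 to 3 higher and 0 to 0 lower in ES-LIF(-), 4 to 4 and 2 to 2 between CM and CP, and 35 to 39 past the F test. The 4 lower in CM arose without ES-LIF(+) replicate 2, which added Rab35, Rab3b and Rab5c, and 2 without CM replicate 1, which added Rab35. ES-LIF(-) kept 1 higher, Rab15, without ES-LIF(+) replicate 3 or ES-LIF(-) replicate 1 or 2. Of the calls, 9 of 15 in CP and 16 of 23 in CM held in all 12 such fits. Apart from the change of group size, the filter or the scale named, the cause was not tested. Over single members, 100 values under the 3 added alternatives kept their call and 21 lost it, and 1007 and 141 under the others; no called member changed direction. Over 18 pairs of arrays with the same number, deviations from the stage means correlated between -0.047 and 0.0954, so the numbers do not pair the arrays, and 3 of 12 arrays correlated best with their own number. With a replicate block all 15 calls in CP, 23 in CM, 3 in ES-LIF(-) and 6 between CM and CP were kept. Groupings of the arrays other than by replicate number were not examined. Signals below the array medians, as for Rab20, Rab32, Rab37, Rab40b and Rab7b in ES-LIF(+), lie near background and give imprecise fold changes.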
